A study of Rattus norvegicus with 4 samples.

Results

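The cell cycle and proliferation genes comprised 54 symbols, chosen by name, of which 52 had a row in a table of 17768 genes from the rat kidney line NRK-52E. They were 16 genes of S phase, 6 G1 cyclins and their kinase, 3 transcription factors and 27 genes of G2 and mitosis. The symbols E2f1 and Ccnb2 were not analysed here. All 52 genes passed the filter on low values, a normalized count of at least 1 in at least 2 libraries. RNA was sequenced from 4 libraries, 2 titled lv_Mettl3 and 2 titled lv_nc. Mettl3 encodes the enzyme that writes N6-methyladenosine on RNA. Per the labels' protocols, a lentivirus made from pLVX-IRES-Puro with a murine Mettl3 cDNA was collected after 48 h and used to make a stable NRK-52E line. Puromycin was used at 0.5 mg/ml for selection and 0.25 mg/ml for maintenance, in medium with 10% serum. The labels give the same protocol and the treatment label untreated for all 4 libraries. They do not spell out nc, name its vector, or say whether a line was 1 clone or whether replicates were separate cultures. The p-values therefore rest on the variation among these 4 libraries alone, and that variation may be technical.

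Cells commit to division when D-type and E-type cyclins activate their kinases, which inactivate the retinoblastoma family of pocket proteins and free E2F factors to switch on the S-phase genes. Later in the cycle B-Myb and FoxM1 act with the MuvB complex on genes needed in G2 and mitosis, and these RNAs peak in dividing cells and fall as cells leave the cycle. NRK-52E is an immortal line that divides in culture. In bulk RNA, fewer cycling cells and less RNA per cycling cell cannot be told apart.

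Most of the S-phase and mitotic genes carried in their promoters the sequence elements known for their class. RefSeq (GRCr8) gives a window of 250 bases before and 50 after the start for 40 of the 52 genes. The motifs searched, on both strands, were E2F (letters TTCCCGC, or the variant TTGGCGC, or the variant TTCGCGC), the cell cycle genes homology region or CHR (TTTGAA), to which MuvB binds, and the CCAAT box (CCAAT), which NF-Y binds. No 2 of these motif kinds are nested in each other, but matches to them can share bases. An E2F motif was in the windows of 11 of 13 S-phase genes (84.6%) and 4 of 23 mitotic genes (17.4%). It was in the windows of 1 of 3 genes of the G1 class and 0 of 1 transcription factor genes. Of all 27457 RefSeq genes with a window, 2307 held it (8.40%). That background was not limited to the genes tested here or matched for expression. The CHR letters were in the windows of 1 S-phase gene (7.69%) and 15 mitotic genes (65.2%), against 19.4% of all RefSeq genes with a window. The CCAAT box was in the windows of 10 S-phase genes (76.9%) and 19 mitotic genes (82.6%), against 39.6% of all RefSeq genes with a window. The 250 bases before the start are shown for genes that differ in these elements: Mcm5 and Mcm6, helicase subunits with E2F motifs, Top2a, with CHR, Cdk1, with both, and Nusap1, which had the lowest fold change of the 51 genes with a mean of 100 or more normalized counts. Capitals mark every E2F, CHR and CCAAT match on either strand that lies wholly within the bases shown. The E2F match of Mcm6 nearest the start runs past it and is left in lower case. The TTTGAA of Nusap1 lies after the start, outside the bases shown.
Mcm5 (chr19:13488563-13488812, plus strand): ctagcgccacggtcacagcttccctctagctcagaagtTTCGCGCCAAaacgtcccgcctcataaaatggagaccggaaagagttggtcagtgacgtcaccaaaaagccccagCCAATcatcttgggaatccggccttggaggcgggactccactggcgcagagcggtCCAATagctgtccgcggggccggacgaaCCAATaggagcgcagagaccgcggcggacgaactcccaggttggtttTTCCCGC
Mcm6 (chr13:42404353-42404602, minus strand): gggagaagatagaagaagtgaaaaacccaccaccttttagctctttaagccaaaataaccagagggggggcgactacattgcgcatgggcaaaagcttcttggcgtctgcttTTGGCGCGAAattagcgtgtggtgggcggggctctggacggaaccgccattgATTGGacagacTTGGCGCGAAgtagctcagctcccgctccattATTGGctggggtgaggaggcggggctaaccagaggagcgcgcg
Cdk1 (chr20:19265043-19265292, plus strand): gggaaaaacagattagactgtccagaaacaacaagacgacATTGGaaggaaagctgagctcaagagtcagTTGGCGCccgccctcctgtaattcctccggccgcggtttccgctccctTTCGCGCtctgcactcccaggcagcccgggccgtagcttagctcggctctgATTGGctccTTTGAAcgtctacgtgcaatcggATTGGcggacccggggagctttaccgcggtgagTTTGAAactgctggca
Top2a (chr10:84473094-84473343, minus strand): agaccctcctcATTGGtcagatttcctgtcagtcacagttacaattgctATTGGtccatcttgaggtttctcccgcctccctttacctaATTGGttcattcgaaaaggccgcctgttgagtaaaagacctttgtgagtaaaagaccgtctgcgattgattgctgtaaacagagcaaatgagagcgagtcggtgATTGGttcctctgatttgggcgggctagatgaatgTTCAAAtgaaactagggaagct
Nusap1 (chr3:127057045-127057294, plus strand): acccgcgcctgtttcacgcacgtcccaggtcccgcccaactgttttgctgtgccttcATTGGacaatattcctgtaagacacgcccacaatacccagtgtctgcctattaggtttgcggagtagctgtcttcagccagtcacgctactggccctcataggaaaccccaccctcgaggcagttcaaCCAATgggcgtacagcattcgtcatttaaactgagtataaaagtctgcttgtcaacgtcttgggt
In Mcm5 and Mcm6 some E2F matches of the 2 strands overlap and form 1 longer capital run. A match is a description of the letters and not evidence of a bound factor.

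**Figure D1:**
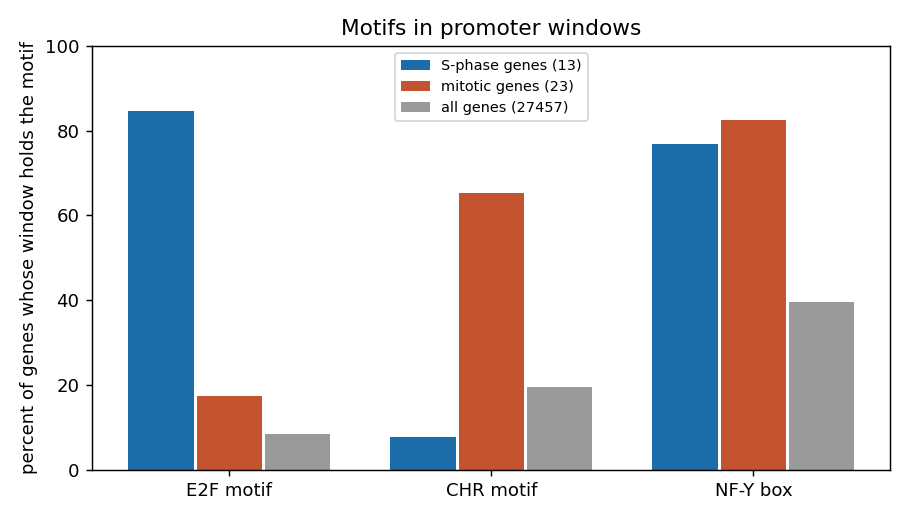
Percent of genes (y axis, from 0) whose promoter windows of 300 bases hold an E2F motif, a CHR motif or an NF-Y (CCAAT) box. The bars are for S-phase genes, mitotic genes and all RefSeq genes with a window. E2F motifs stand out in S-phase genes (84.6%) and CHR in mitotic genes (65.2%), while the CCAAT box is frequent in both.

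The libraries held 15068898 and 15483756 gene reads in lv_Mettl3 replicates 1 and 2, against 16133328 and 16622255 in lv_nc replicates 1 and 2. Values below are normalized counts, the gene's reads divided by a size factor of the library. Rat Mettl3 had 757 and 700 normalized counts in the lv_Mettl3 libraries, against 719 and 767 in the lv_nc libraries (log2 fold change -0.03, SE 0.11, limma adjusted p = 0.931). The titled gene thus did not separate the groups, and whether reads of the murine cDNA count toward this row is not given in the sources used here, so the libraries are called by their labels. Of the epithelial markers, Krt8 was abundant at 28296 and 32176 normalized counts in the lv_Mettl3 libraries, against 29513 and 33065 in the lv_nc libraries, while Cdh1 stayed at 8.79 or below in every library. Of 8 proximal tubule markers in the table, 5 were under 30 normalized counts in every library, and Lrp2 was at 0 in both lv_Mettl3 libraries and at 1.95 and 0.923 in the lv_nc libraries. Ggt1 by contrast was abundant, at 3294 and 3757 normalized counts in the lv_Mettl3 libraries, against 2412 and 2530 in the lv_nc libraries. It was the 1 proximal tubule marker that DESeq2 called, higher in lv_Mettl3 (DESeq2 adjusted p = 0.0345, limma adjusted p = 0.378). The 3 leukocyte and endothelial markers in the table summed to 28.6 and 67.2 normalized counts in the lv_Mettl3 libraries, against 44.9 and 51.7 in the lv_nc libraries. Of 6 fibroblast and smooth muscle markers in the table, DESeq2 called 4 lower in lv_Mettl3, against 1.07% of all genes. These were Col1a1, Col1a2, Col3a1 and Acta2, while limma and edgeR called 0 of the 6. None was at 0 in every library, but Pdgfra stayed at 3.10 or below. The summed level of those 6 was 5150 and 4552 normalized counts in the lv_Mettl3 libraries, against 13425 and 17568 in the lv_nc libraries. Its part in the values of the cell cycle genes was not tested.

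None of the 52 cell cycle genes was called between the groups, and most differed by little. Limma on log2(value + 1), adjusted over all 16391 genes tested, called 0 of the 52 at an adjusted p under 0.05, against 0.0183% of all genes. The edgeR quasi-likelihood test on the recovered reads called 0 of the 52 (0.0381% of all genes), and DESeq2 called 0 of the 51 to which it gave an adjusted p (2.52% of all genes). At an unadjusted limma p under 0.05, 2 of the genes were higher in lv_Mettl3, against 5.54% of all genes, and 6 were lower, against 4.93%. Both lv_Mettl3 libraries lay above both lv_nc libraries for 7 of the 52 genes (13.5%), against 23.5% of all genes, and below them for 9 (17.3%), against 21.5%. The median log2 fold change was 0.02 over the 52 genes, 29 of them above 0, and 0.01 over all genes. The 95% interval of the fold change lay within 2-fold in either direction for 49 of the 52 genes and within 1.5-fold for 38. The exceptions at 2-fold were Mki67, Cenpe and Cdc25b. At a mean normalized count of 100 or more, that interval was within 2-fold for 49 of 51 cell cycle genes (96.1%) and for 8886 of 10051 genes (88.4%). The authors' deposited table likewise gave 0 of the 52 an adjusted p under 0.05, and its selected list of 167 genes held 0 of them.

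**Figure D2:**
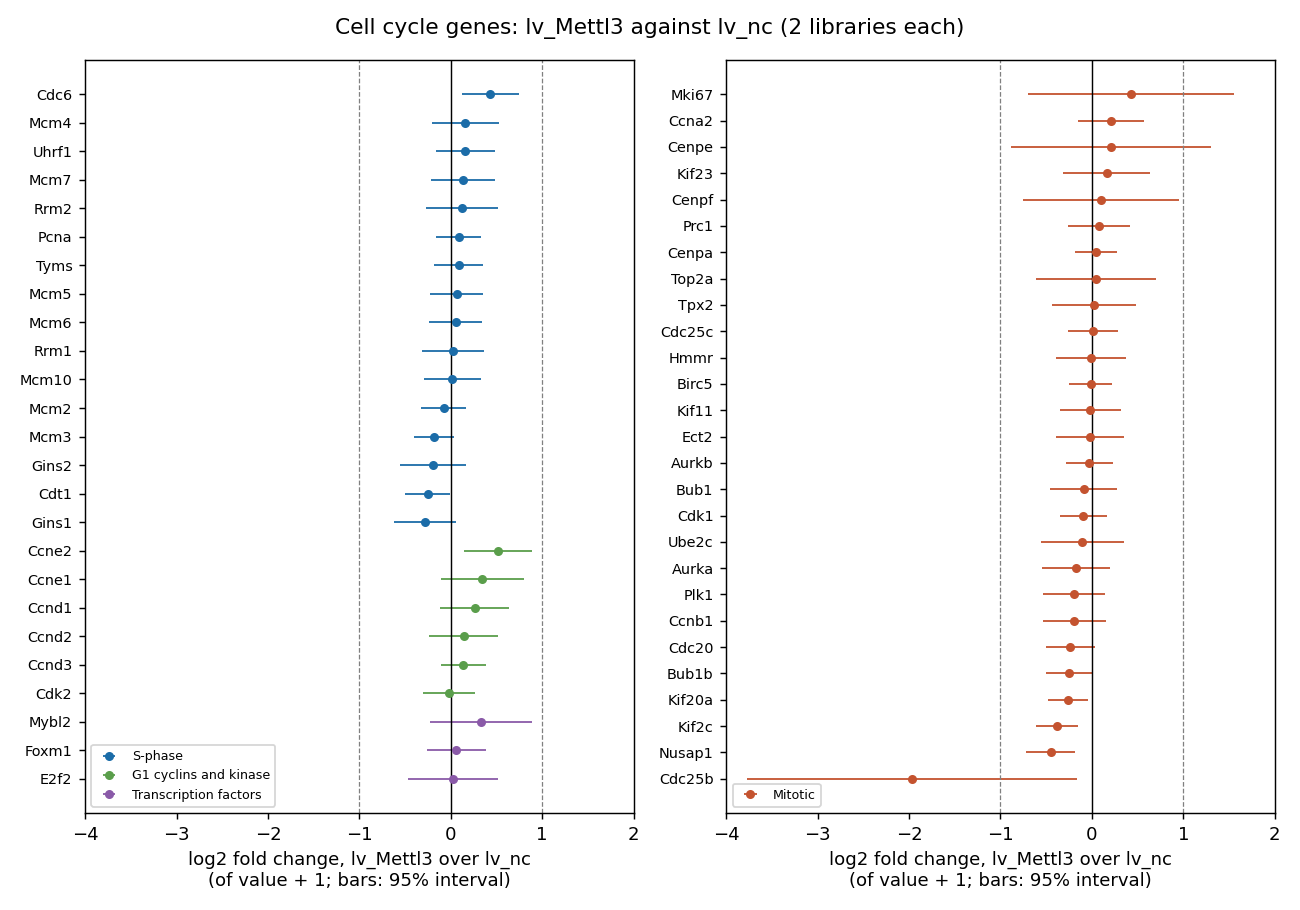
Log2 fold change of each cell cycle gene, lv_Mettl3 over lv_nc (x axis; 2 libraries each, value + 1), with its 95% limma interval as a bar and dashed lines at 2-fold; colours give the class. Most intervals lie within the dashed lines; those of Mki67, Cenpe and Cdc25b do not.

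The genes were abundant. Per kilobase of gene length, the median gene of the 52 stood at percentile 89.1 of all genes tested, the S-phase genes at 92.7, the mitotic genes at 89.3 and the G1 group at 87.0. The highest levels per kilobase over the 4 libraries were 3927 normalized counts for Rrm2, 3613 for Pcna, 3476 for Cdk1 and 2620 for Top2a. Together the 52 genes took 1.07% and 0.988% of the reads in the lv_Mettl3 libraries, against 1.14% and 0.952% in the lv_nc libraries. The lv_Mettl3 shares lay between those of lv_nc.

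S-phase genes include the replicative helicase and its loaders, the sliding clamp and the enzymes that make deoxynucleotides. Their median log2 fold change was 0.06, with 11 of 16 above 0 and a range from -0.28 to 0.43, and all 16 intervals lay within 2-fold. Pcna, the sliding clamp of the replication fork, had 4345 and 4286 normalized counts in the lv_Mettl3 libraries, against 4302 and 3833 in the lv_nc libraries (log2 fold change 0.09, SE 0.10, limma adjusted p = 0.742). The groups overlapped, with lv_nc replicate 2 the lowest. Its interval ran from 0.90-fold to 1.26-fold. Mcm2, a subunit of the helicase ring, had 4119 and 4324 normalized counts in the lv_Mettl3 libraries, against 4217 and 4704 in the lv_nc libraries (log2 fold change -0.08, SE 0.10). Here lv_nc replicate 2 was the highest library, the reverse of most S-phase genes, and the groups overlapped. The helicase subunits Mcm2 to Mcm7 had log2 fold changes from -0.18 for Mcm3 to 0.16 for Mcm4. Mcm3 was the helicase subunit whose groups did not overlap, with 4410 and 4692 normalized counts in the lv_Mettl3 libraries, against 5132 and 5203 in the lv_nc libraries.

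The genes for helicase loading at origins pointed in different directions. Cdc6, which with the origin recognition complex loads the helicase, had the highest fold change of the S-phase genes. It had 1448 and 1558 normalized counts in the lv_Mettl3 libraries, against 1209 and 1022 in the lv_nc libraries. Both lv_Mettl3 libraries were above both lv_nc libraries, 1.35-fold on average with an interval from 1.09 to 1.68 (SE 0.12 and difference 0.43 on the log2 scale; limma adjusted p = 0.438, DESeq2 adjusted p = 0.235). Cdt1, the partner of Cdc6 in loading, had 2110 and 2357 normalized counts in the lv_Mettl3 libraries, against 2670 and 2649 in the lv_nc libraries. Its groups did not overlap either, but in the opposite direction (log2 fold change -0.25, SE 0.10, limma adjusted p = 0.473). Gins1, a subunit of the GINS complex that activates the helicase, was the lowest by fold change, with 292 and 297 normalized counts in the lv_Mettl3 libraries, against 351 and 364 in the lv_nc libraries. Those values did not overlap (log2 fold change -0.28, SE 0.13, limma adjusted p = 0.507).

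Genes of deoxynucleotide supply and methylation upkeep had overlapping groups throughout. Rrm2, the regulated subunit of ribonucleotide reductase, had 4627 and 4948 normalized counts in the lv_Mettl3 libraries, against 5045 and 3806 in the lv_nc libraries (log2 fold change 0.13, SE 0.15). The lv_nc libraries were its extremes. A second row with the description ribonucleotide reductase M2 polypeptide, LOC100359539 on chromosome 19, held 3221 and 3275 normalized counts in the lv_Mettl3 libraries, against 3304 and 2633 in the lv_nc libraries, so the level of Rrm2 is uncertain if reads were split between the rows. Rrm1, the large subunit (log2 fold change 0.02), Tyms, which makes thymidylate (0.09), and Uhrf1, which guides maintenance methylation at the fork (0.16), had intervals within 1.5-fold.

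The G1 cyclins had the highest median of the classes, 0.20 on the log2 scale, with 5 of 6 genes above 0. Both lv_Mettl3 libraries lay above both lv_nc libraries for 4 of the 6 (66.7%), against 23.5% of all genes, and 0 were called. Ccne2, an E-type cyclin that activates Cdk2 at the entry to S phase, had 1862 and 1890 normalized counts in the lv_Mettl3 libraries, against 1494 and 1156 in the lv_nc libraries. It had the highest fold change of the 52 genes, 1.43-fold with a 95% interval from 1.10 to 1.85 (log2 fold change 0.51, SE 0.14, limma adjusted p = 0.442, DESeq2 adjusted p = 0.128). Ccne1, the other E-type cyclin, had 1481 and 1565 normalized counts in the lv_Mettl3 libraries, against 1419 and 1012 in the lv_nc libraries (log2 fold change 0.35, SE 0.18). The lv_nc values differed from each other by more than the lowest lv_Mettl3 value differed from the highest lv_nc value.

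Ccnd1, the D-type cyclin that growth factors induce, had 6192 and 6642 normalized counts in the lv_Mettl3 libraries, against 6095 and 4703 in the lv_nc libraries (log2 fold change 0.26, SE 0.15, limma adjusted p = 0.552). The groups did not overlap, but lv_nc replicate 1 was close to the lv_Mettl3 libraries. Per kilobase, Ccnd1 (1524 normalized counts over the 4 libraries) and Ccnd3 (1494) stood well above Ccnd2 (297). Cdk2, the kinase partner of the E-type cyclins, was the gene of this class below 0, with 1667 and 1768 normalized counts in the lv_Mettl3 libraries, against 1871 and 1623 in the lv_nc libraries (log2 fold change -0.02, SE 0.11). For all 6 genes lv_nc replicate 2 was the lowest library.

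Among the transcription factors, Mybl2, which encodes B-Myb, had 3503 and 3453 normalized counts in the lv_Mettl3 libraries, against 3457 and 2217 in the lv_nc libraries (log2 fold change 0.33, SE 0.22, limma adjusted p = 0.593). Of its 4 libraries 3 were alike and lv_nc replicate 2 was low. E2f2, an activating E2F, had 334 and 406 normalized counts in the lv_Mettl3 libraries, against 318 and 413 in the lv_nc libraries (log2 fold change 0.02, SE 0.19). Its replicates differed more than its groups. Foxm1, the forkhead factor of the G2 and mitotic genes, had a log2 fold change of 0.06 and overlapping groups.

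**Figure D3:**
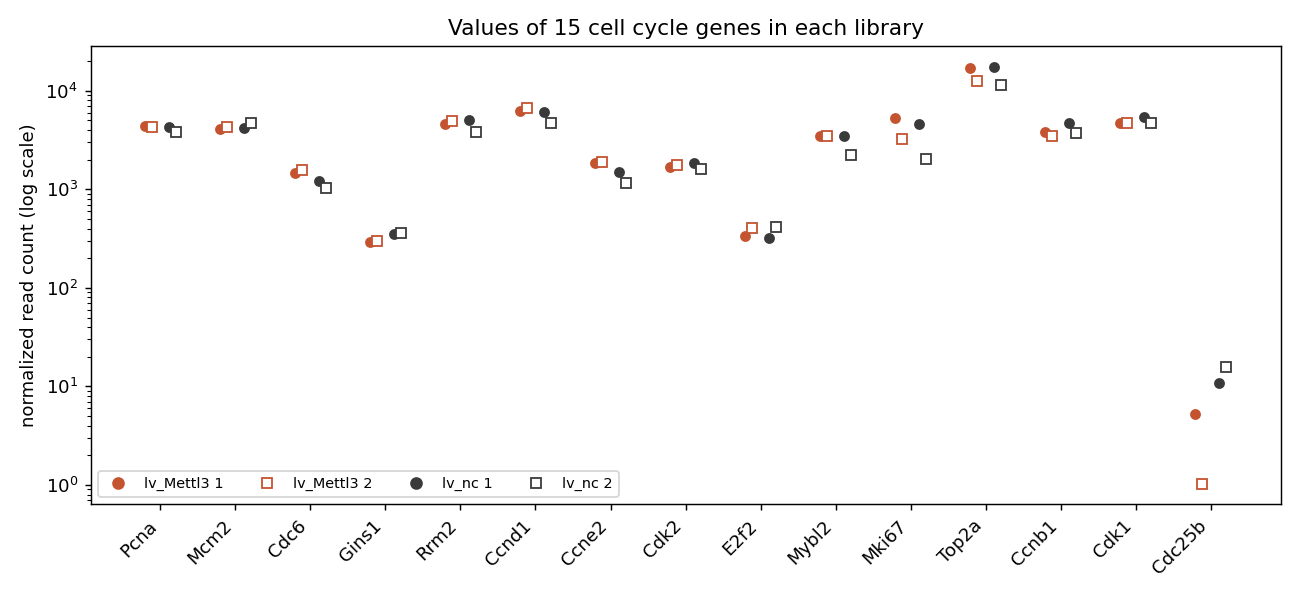
Normalized counts (log scale) of 15 cell cycle genes in each library, with lv_Mettl3 symbols left of lv_nc symbols for each gene. Cdc6 and Ccne2 show separate groups, and Mki67 shows a wide gap between the replicates of each group.

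The mitotic genes had a median log2 fold change of -0.02, with 10 of 27 above 0 and 24 intervals within 2-fold. Both lv_Mettl3 libraries lay above both lv_nc libraries for 2 of them (7.41%), against 23.5% of all genes, and below them for 6 (22.2%), close to the 21.5% of all genes. An unadjusted limma p under 0.05 was found for 0 genes higher in lv_Mettl3, against 5.54% of all genes, and for 5 lower, against 4.93%. Cdk1, the kinase that drives mitotic entry, had 4747 and 4726 normalized counts in the lv_Mettl3 libraries, against 5410 and 4737 in the lv_nc libraries (log2 fold change -0.10, SE 0.10, limma adjusted p = 0.729). Ccnb1, the B-type cyclin that activates it, had 3856 and 3518 normalized counts in the lv_Mettl3 libraries, against 4702 and 3760 in the lv_nc libraries (log2 fold change -0.19, SE 0.14). In both genes lv_nc replicate 1 was the highest library and the groups overlapped. The same library was the highest for 18 of the 27 mitotic genes. Among them were the kinases Plk1 and Aurka, and Ube2c, a ubiquitin-conjugating enzyme that works with the anaphase-promoting complex. A row described as a cyclin B2-like pseudogene on chromosome 1 had 978 and 1039 normalized counts in the lv_Mettl3 libraries, against 1104 and 1278 in the lv_nc libraries.

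The mitotic genes with both lv_Mettl3 libraries below both lv_nc libraries included genes of the spindle and its checkpoint, and are given here because of their values. Nusap1, which bundles spindle microtubules, had 1468 and 1382 normalized counts in the lv_Mettl3 libraries, against 1833 and 2070 in the lv_nc libraries. This was 0.73-fold with an interval from 0.61 to 0.88 (log2 fold change -0.45, SE 0.11, limma adjusted p = 0.399, DESeq2 adjusted p = 0.131). Kif2c, a kinesin that depolymerises microtubules at the centromere, had 1403 and 1371 normalized counts in the lv_Mettl3 libraries, against 1857 and 1760 in the lv_nc libraries. The spread within each of its groups was small beside the gap between them (log2 fold change -0.38, SE 0.09, limma adjusted p = 0.399, DESeq2 adjusted p = 0.260). Kif20a, a kinesin of cytokinesis, had 4683 and 4477 normalized counts in the lv_Mettl3 libraries, against 5625 and 5374 in the lv_nc libraries (log2 fold change -0.26, SE 0.09). Bub1b, a checkpoint kinase-like protein, and Cdc20, the activator of the anaphase-promoting complex that the checkpoint holds back, had log2 fold changes of -0.25 and -0.24. Cdc25b, a phosphatase that activates Cdk1, was the scarce gene among the 52, at 5.30 and 1.03 normalized counts in the lv_Mettl3 libraries, against 10.7 and 15.7 in the lv_nc libraries. At this depth the fold change of Cdc25b was poorly determined (log2 fold change -1.97, interval from -3.77 to -0.16, limma adjusted p = 0.469, no DESeq2 adjusted p). Its log2 fold change ranged from -2.78 to -1.15 with 1 library left out (lv_Mettl3 replicate 1 at the low end, lv_Mettl3 replicate 2 at the other), and was -2.40 with a pseudocount of 0.1 and -1.20 with a pseudocount of 5. Ccna2, the A-type cyclin, and Cenpa, the centromeric histone, were the 2 mitotic genes whose groups were apart above lv_nc, at log2 fold changes of 0.21 and 0.05.

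Standard proliferation markers did not separate the groups. Mki67, which encodes the antigen Ki-67 on mitotic chromosomes, had 5288 and 3249 normalized counts in the lv_Mettl3 libraries, against 4647 and 2041 in the lv_nc libraries (log2 fold change 0.43, SE 0.44, interval from -0.70 to 1.56, limma adjusted p = 0.725). Replicate 1 was the higher library in both groups. Top2a, the topoisomerase that untangles sister chromatids, had 17133 and 12458 normalized counts in the lv_Mettl3 libraries, against 17538 and 11449 in the lv_nc libraries (log2 fold change 0.04, SE 0.26). It showed the same order of replicates. In the fit without pairing of replicates, the interval of Mki67 ran from 0.62-fold to 2.94-fold.

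The widest gaps between replicates were in long genes, apart from the scarce Cdc25b and, in lv_nc, Mybl2. Of the 52 genes 5 have a length of at least 5000 bases in the deposited table: Mcm10, Top2a, Cenpe, Mki67 and Cenpf. Cenpe, a kinesin of the kinetochore, had 2440 and 1323 normalized counts in the lv_Mettl3 libraries, against 2191 and 1099 in the lv_nc libraries. Cenpf, a kinetochore protein, had 2134 and 1362 normalized counts in the lv_Mettl3 libraries, against 2102 and 1210 in the lv_nc libraries. Like Mki67 and Top2a, both were higher in replicate 1 of each group, while Mcm10, which joins the helicase at origins, had 1192 and 1257 normalized counts in the lv_Mettl3 libraries, against 1313 and 1111 in the lv_nc libraries. Over these 5 genes the median log2 ratio of replicate 1 to replicate 2 was 0.65 in lv_Mettl3 and 0.80 in lv_nc, and the median SE of the fold change was 0.33. Over the 26 genes shorter than 3000 bases the median ratios were 0.01 in lv_Mettl3 and 0.20 in lv_nc, with a median SE of 0.12. Over the 21 genes between these lengths they were 0.02 and 0.26. In a further list of 78 mitosis genes, described below, 9 of at least 5000 bases had smaller median ratios, 0.22 in lv_Mettl3 and 0.23 in lv_nc. The 45 of that list below 3000 bases had 0.07 and 0.24, and the 24 in between 0.19 and 0.34. Among all 1285 genes of at least 5000 bases whose mean normalized count reached 100, the median ratio was 0.03 in lv_Mettl3 and 0.03 in lv_nc. Across the 52 genes, which share these libraries, the correlation of log2 length with that ratio was r = 0.37 in lv_Mettl3 and r = 0.38 in lv_nc, with Spearman's rho at 0.25 in lv_Mettl3 and 0.23 in lv_nc. Over the 10051 genes whose mean normalized count reached 100, r was 0.093 in lv_Mettl3 and 0.0093 in lv_nc. The length limits were set with these values in view, and the part of gene length or RNA quality in the gaps was not tested.

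**Figure D4:**
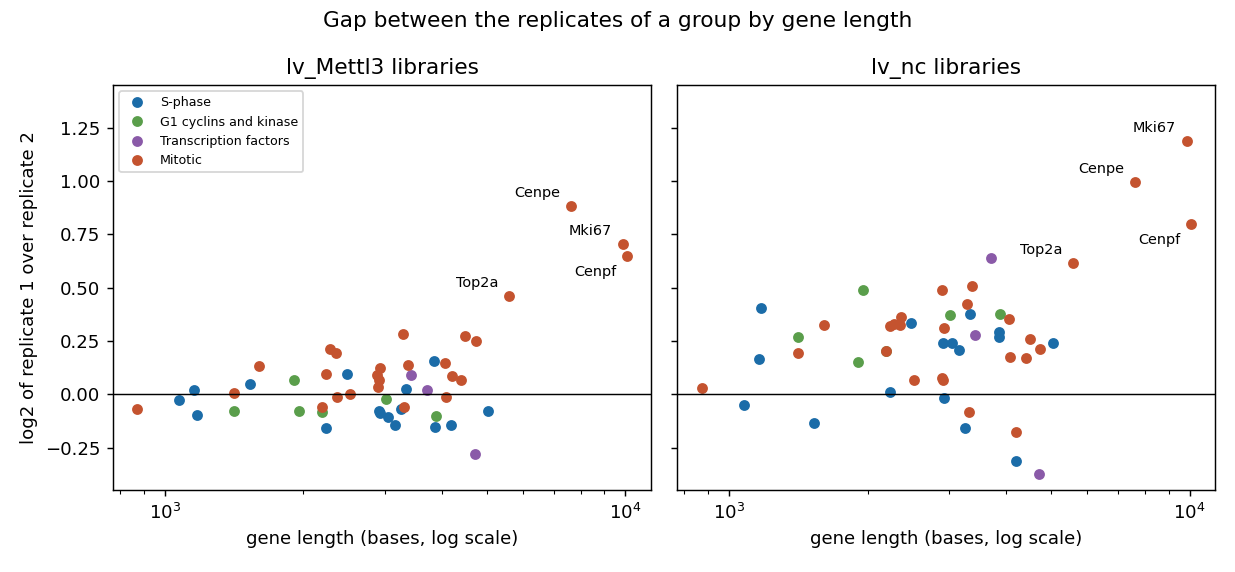
Log2 ratio of replicate 1 to replicate 2 (y axis) against gene length in bases (x axis, log scale) for the 51 cell cycle genes with a mean of at least 100 normalized counts, lv_Mettl3 left and lv_nc right; Cdc25b is left out for its low counts. Cenpe, Mki67, Cenpf and Top2a have the highest ratios in lv_Mettl3, and Mki67, Cenpe and Cenpf in lv_nc.

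Library by library, the class medians lay further apart between the lv_nc replicates than between the lv_Mettl3 replicates. After centring each gene on its mean over the 4 libraries, the median S-phase gene stood at 0.00 and 0.03 on the log2 scale in the lv_Mettl3 libraries, against 0.09 and -0.13 in the lv_nc libraries. For the G1 cyclins and kinase these medians were 0.09 and 0.15 in the lv_Mettl3 libraries, against 0.06 and -0.26 in the lv_nc libraries. For the mitotic genes they were 0.02 and -0.13 in the lv_Mettl3 libraries, against 0.19 and -0.07 in the lv_nc libraries. The lv_nc libraries were thus the extremes of the S-phase class, and lv_nc replicate 2 was the lowest library for 31 of the 52 genes. For the 10051 genes whose mean reached 100 normalized counts, the 4 medians lay between -0.01 and 0.01. Mitotic genes took 0.616% and 0.530% of the reads in the lv_Mettl3 libraries, against 0.675% and 0.539% in the lv_nc libraries, so replicate 1 had the larger share in each group.

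**Figure D5:**
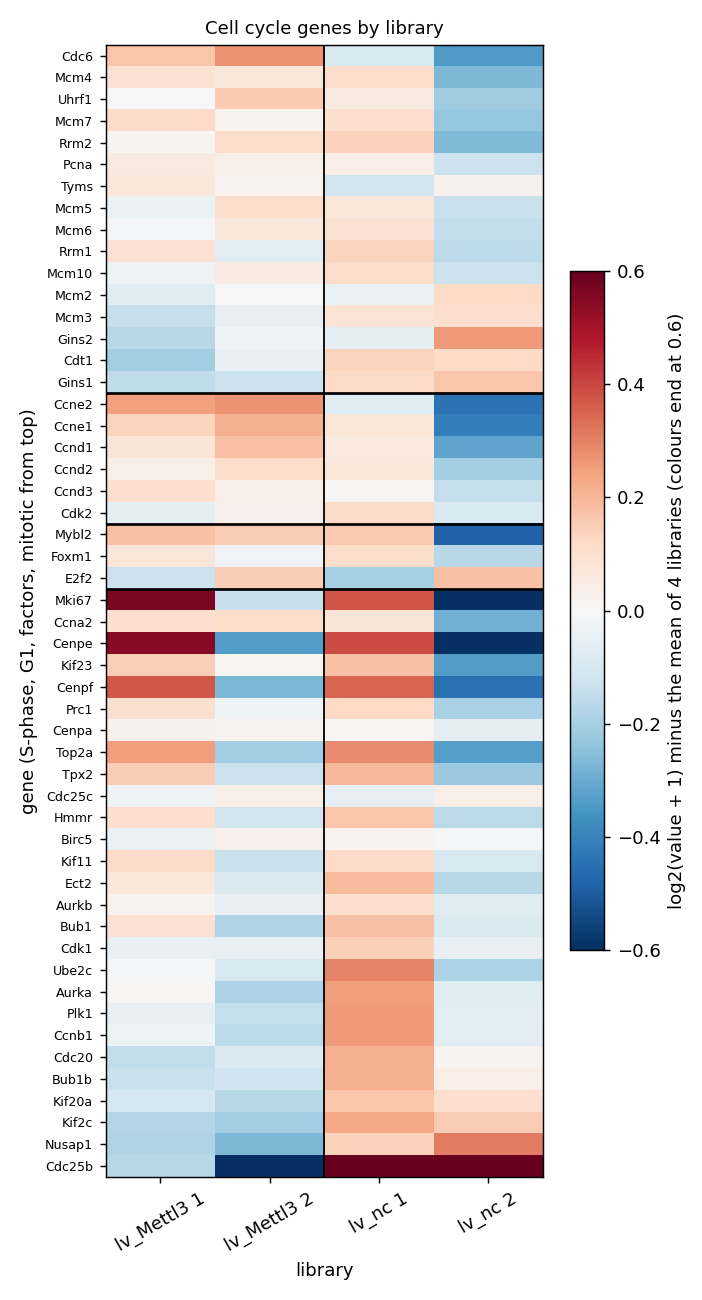
Log2(value + 1) of each cell cycle gene minus its mean over the 4 libraries, by gene (rows, classes divided by lines) and library (columns, lv_Mettl3 left of lv_nc); colours end at 0.6 either way. Most genes of the upper 3 classes are lowest (blue) in lv_nc replicate 2, and 18 of 27 mitotic genes are highest in lv_nc replicate 1.

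Which lv_nc library was kept decided the calls. Without lv_nc replicate 1, limma called 8 of the 52 genes, against 8.92% of all genes, with the remaining lv_nc library assumed to vary like the lv_Mettl3 pair. In that fit 7 rose in lv_Mettl3, against 5.1% of all genes called higher: Ccne2, Cdc6, Ccne1, Ccnd1, Mybl2, Ccna2 and Mcm4, at log2 fold changes from 0.35 for Mcm4 to 0.70 for Ccne2. Nusap1 fell in it, against 3.82% of all genes called lower (log2 fold change -0.54, limma adjusted p = 0.0328). DESeq2 without that library called 10, the same 8 with Kif23 and Rrm2, against 12.7% of all genes. Without lv_nc replicate 2 limma called 0 of the 52 (0.175% of all genes, 0.156% higher and 0.0188% lower), and the log2 fold changes were 0.33 for Ccne2, 0.31 for Cdc6, 0.10 for Ccne1, 0.07 for Ccnd1, 0.01 for Mybl2 and -0.03 for Mcm4. That of Ccna2 was 0.03, that of Nusap1 -0.36 and that of Kif2c -0.42. Ccnd1, Mybl2, Ccna2 and Mcm4 were thus near 0 against lv_nc replicate 1 alone.

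Other genes of the programme were likewise not called. Of 51 other replication genes, 0 were called by limma, edgeR or DESeq2, 1 had an unadjusted limma p under 0.05 (lower in lv_Mettl3, against 4.93% of all genes), and the median log2 fold change was 0.02. Their extremes were Rnaseh2a, a subunit of the enzyme that cuts RNA from DNA (log2 fold change -0.41, SE 0.16), and Orc1, the largest subunit of the origin recognition complex (0.54, SE 0.34). Orc1 had 850 and 870 normalized counts in the lv_Mettl3 libraries, against 841 and 414 in the lv_nc libraries, so lv_nc replicate 2 stood apart from the other libraries. Of 78 other mitosis genes, 0 were called by any of the 3 tests, 4 had an unadjusted limma p under 0.05 (all lower, against 4.93% of all genes), and the median was -0.02. Without lv_nc replicate 1, limma called 12 of the 129 genes of both lists, 10 higher in lv_Mettl3 and 2 lower, against 8.92% of all genes. The extremes of the 78 other mitosis genes were Dlgap5, a spindle assembly factor, and Cdc25a, a phosphatase that activates Cdk2 (0.38, SE 0.19). Dlgap5 had 2331 and 2215 normalized counts in the lv_Mettl3 libraries, against 3076 and 2901 in the lv_nc libraries (log2 fold change -0.39, SE 0.09, limma adjusted p = 0.387). As with Nusap1 and Kif2c, the groups of Dlgap5 did not overlap. Both lv_Mettl3 libraries lay below both lv_nc libraries for 19 of these 78 genes (24.4%) and above them for 5 (6.41%), against 21.5% and 23.5% of all genes.

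The third list held further regulators of the cell cycle. Of 33 symbols for Cdk inhibitors, pocket proteins and related regulators, 29 were tested, limma and edgeR called 0 and DESeq2 called 1 of the 28 to which it gave an adjusted p, a count near the 2.52% of all genes. At an unadjusted limma p under 0.05, 3 were higher, against 5.54% of all genes, and 2 lower, against 4.93%. Without lv_nc replicate 1, limma called 6 of the 29 (E2f7, E2f4, E2f6, Myc, Ccng2 and Tfdp1), against 8.92% of all genes, and DESeq2 called the same 6, against 12.7%; without any other single library both called 0. E2f7, a repressor that dampens E2F targets late in S phase, had 861 and 719 normalized counts in the lv_Mettl3 libraries, against 553 and 359 in the lv_nc libraries. It rose in lv_Mettl3 by DESeq2 (log2 fold change 0.79, SE 0.24, DESeq2 adjusted p = 0.0420), with a limma adjusted p of 0.447. DESeq2 without lv_nc replicate 1 gave an adjusted p of 4.17e-05 for E2f7, against 0.518 when lv_nc replicate 2 was dropped instead. When a lv_Mettl3 library was dropped, DESeq2 gave E2f7 an adjusted p of 0.99996 (replicate 1) or 0.999984 (replicate 2). Myc, the growth factor-induced transcription factor, had 1182 and 1146 normalized counts in the lv_Mettl3 libraries, against 801 and 301 in the lv_nc libraries (log2 fold change 1.24, SE 0.45, limma adjusted p = 0.471, DESeq2 adjusted p = 0.631). Its groups did not overlap, but the gap between the lv_nc libraries was wider than that between the lowest lv_Mettl3 and the highest lv_nc value. The log2 fold change of Myc was 1.95 without lv_nc replicate 1 (limma adjusted p = 0.00814, DESeq2 adjusted p = 1.99e-19) and 0.54 without lv_nc replicate 2 (limma adjusted p = 0.183, DESeq2 adjusted p = 0.139). The lowest fold change of the list was that of Mycn (log2 fold change -0.68, SE 0.51), a gene with 8.48 and 7.23 normalized counts in the lv_Mettl3 libraries, against 18.6 and 9.23 in the lv_nc libraries. Cdkn1a, which encodes the inhibitor p21, had 1544 and 1426 normalized counts in the lv_Mettl3 libraries, against 1666 and 1744 in the lv_nc libraries (log2 fold change -0.20, SE 0.10, limma adjusted p = 0.512).

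Genes that carried the motifs did not differ in one direction. The median log2 fold change was 0.02 over the 11 S-phase genes with an E2F motif and -0.01 over the 15 mitotic genes with CHR letters, against -0.18 over the 8 mitotic genes whose window lacks them. Of the genes with sequences shown, Mcm5 and Mcm6 had log2 fold changes of 0.07 and 0.06, Cdk1 and Top2a -0.10 and 0.04, and Nusap1 -0.45.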

How the data were processed

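Values came from the deposited table of all genes. Per the submitters' processing notes, the authors used CASAVA 1.4 and HISAT2; what was used for counting, strand, build and annotation is not given in the sources used here. Per library, the deposited columns hold a signal, gene read counts that the authors divided by 1 size factor per library: 100% of values were whole reads within 0.001 reads of the steps. Log2 fold changes and adjusted p-values in the table were deposited by the authors, per the file headers, and so were gene lengths. Depth was 15068898 to 16622255 reads, and intervals come from 2 libraries per group.

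Limma 3.58.1 (trend) was fitted to log2(value + 1) of the 16391 genes that reached a value of 1 in 2 or more libraries, and p-values were adjusted over them (Benjamini-Hochberg, threshold 0.05). The value + 1 scale understates changes of low genes. Recovered reads were tested with edgeR 4.0.16 and DESeq2 1.42.0 (R 4.3.3; Python 3.11.15, matplotlib 3.10.9). Scripts were tested on simulated data. Members, lists and tests were chosen with earlier results of these data known. Per-library values were to be given for called members, members apart by at least 0.5 on the log2 scale, class extremes and standard markers; others named here were chosen after their values were seen. Alternatives changed scaling, pseudocount, filter, test and libraries; leaving libraries out of DESeq2 was added after seeing the data.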

Additional observations from a re-analysis of the deposited data

How the results depend on the processing

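The number of the 52 cell cycle genes called by limma ranged from 0 to 8 when 1 library was left out, and that of the 129 other replication and mitosis genes from 0 to 12; the highest counts were without lv_nc replicate 1. DESeq2 calls ranged from 0 to 10 likewise. Scaling, pseudocount, filter, robust fitting, edgeR and DESeq2 on all 4 libraries left each count at 0. The median log2 fold change of the mitotic genes ranged from -0.22 to 0.058 with a library left out, lowest without lv_nc replicate 2, and from -0.06 to -0.01 under the other settings. The S-phase median ranged from -0.04 to 0.17 and from 0.02 to 0.07. Of 15 genes with values by rule, 6 changed sign when a library was left out, over ranges of log2 fold change of -0.16 to 0.0012 for Mcm2, -0.076 to 0.33 for Rrm2, -0.12 to 0.081 for Cdk2, -0.16 to 0.21 for E2f2, -0.16 to 1.02 for Mki67 and -0.26 to 0.35 for Top2a. E2f2 was also at -0.017 with library totals as scaling. The cause was not tested. The replicate numbers are shared between the groups, but the labels do not say that they mark a batch; deviations of same-numbered libraries correlated at 0.325 over 10051 genes, and a fit with the replicate block called 0 of the 52 genes. In it the SE of Mki67 was 0.142 (limma adjusted p = 0.375), against 0.441 without the block, at the same log2 fold change of 0.43. With 2 libraries per group, the printed intervals limit what differences could be detected.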
